A study of Danio rerio with 15 samples.

Results

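Transcripts of 5 nucleolar genes of ribosome assembly were followed in zebrafish Müller glia through the first 36 hours after a light lesion of the retina. The genes were npm1a, gnl3, dkc1, wdr43 and pwp2h. They were chosen by name with earlier results of these data known, so their calls are not those of an unselected set. Each was represented by 1 named probe set, 5 of the 15502 probe sets tested. Names were given only for probe sets that changed at least 2-fold at some time. Other probe sets of these genes with smaller changes, if any, could therefore not be seen. The values came from 15 Affymetrix arrays, 3 biological replicates at each of 5 times. Müller glia, the radial glia from which the fish retina regrows lost neurons, were sorted by flow cytometry for GFP from retinas of fish of the line Tg(gfap:GFP)mi2002, aged 5 to 6 months. The 0 hpl group (hours post-lesion) came from unlesioned fish, and the other groups from retinas taken 8, 16, 24 or 36 hours after the lesion. Unlesioned controls and lesioned fish carried the same transgene, in which the gfap promoter drives GFP in Müller glia, and how many fish went into a replicate is not given in the sources used here. From each replicate 20 ng of total RNA was linearly amplified before labelling with biotin. Levels below are RMA values on the log2 scale and differences between groups are log2 changes, so that a change of 1 is a doubling.

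The nucleolus is where ribosomal RNA is transcribed by RNA polymerase I, chemically modified by small nucleolar ribonucleoproteins (snoRNPs), cleaved, and joined with ribosomal proteins into the small (40S) and large (60S) subunits. Npm1 (nucleophosmin) is an abundant nucleolar chaperone of histones and ribosomal proteins. Gnl3 (nucleostemin) is a GTP-binding protein of the nucleolus, first described in mammalian stem cells, and acts in large-subunit assembly and cell proliferation. Dkc1 (dyskerin) is the pseudouridine synthase of the box H/ACA snoRNPs and in humans is also part of telomerase. Wdr43 and Pwp2 are WD-repeat proteins of the small-subunit processome, the particle that forms on the nascent precursor of the small-subunit RNA. From yeast and human work Wdr43 belongs to its UtpA complex and Pwp2 to its UtpB complex. Ribosomal proteins themselves are made in the cytoplasm and imported, and their messenger RNAs form a separate gene group.

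Median values of the arrays lay between 4.41 and 4.67, and arrays of the same time correlated at 0.973 to 0.991 over the probe sets. Names were taken from a deposited table in which the authors list 3164 probe sets, each of which changed at least 2-fold at some time, so genes of smaller change are not named here. Markers of cell types were read among these named probe sets. Markers of smaller change cannot appear there, so the counts below are partly set by that filter and do not check the sort. Of the 3164 probe sets 827 were called lower at 8 hpl and 1176 at 36 hpl. The 7 of 17 Müller glia markers found (glula, glulb, rlbp1a, aqp1a.1, cahz, s100b and gja1b) averaged 9.94 to 10.24 per array at 0 hpl and 8.75 to 8.86 at 36 hpl, and 6 of them fell and 1 rose at each time; gfap itself was not among the named probe sets. The 13 of 36 photoreceptor markers found averaged 6.59 to 7.45 per array at 0 hpl, 6.47 to 7.40 at 8 hpl and 5.46 to 6.26 at 36 hpl, with 4 lower and 1 higher at 8 hpl and 11 lower at 36 hpl. The 4 of 26 markers found of other retinal neurons (vsx1, gad1b, gad2 and elavl3) averaged 5.82 to 5.98 at 0 hpl and 6.33 to 7.36 at 8 hpl, where 3 rose, and 5.37 to 5.82 at 16 hpl, where none passed the test. Each remaining marker set was found through 1 or 2 genes. The microglial gene ctsba was not called at 8 hpl and rose at the later times, rpe65a of the pigment epithelium fell at 36 hpl alone, and the 2 red blood cell markers, hbae3 and cahz, fell at each time, of which cahz is also counted among the Müller glia markers above. The part of these shifts in the changes below was not tested, and in RNA of sorted populations a change in the make-up of the sort and a change in RNA per cell cannot be told apart.

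All 5 genes were higher at 8 hpl than in unlesioned retinas and stayed higher at 16, 24 and 36 hpl. In each of these 20 comparisons the 3 lesioned arrays lay wholly above the 3 controls, and limma's test called a rise at an adjusted p under 0.05 (Benjamini-Hochberg over 15502 probe sets). The background was high: at 8 hpl 12% of the probe sets tested were called higher, and 37.3% of those in the authors' table from which the names came. At 16, 24 and 36 hpl these shares were 18.4%, 16.3% and 19.9% of the probe sets tested and 49.5%, 49.4% and 54% of that table. The arrays of the time lay wholly above the 3 controls for 15.3%, 22.2%, 20.8% and 22.6% of the probe sets tested. The comparisons at the 4 times share the same 3 control arrays. Over the whole course the moderated F test of limma gave adjusted p-values of 9.28e-10 for npm1a, 3.79e-09 for gnl3, 1.34e-08 for pwp2h, 3.14e-08 for dkc1 and 4.39e-08 for wdr43.

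**Figure D1:**
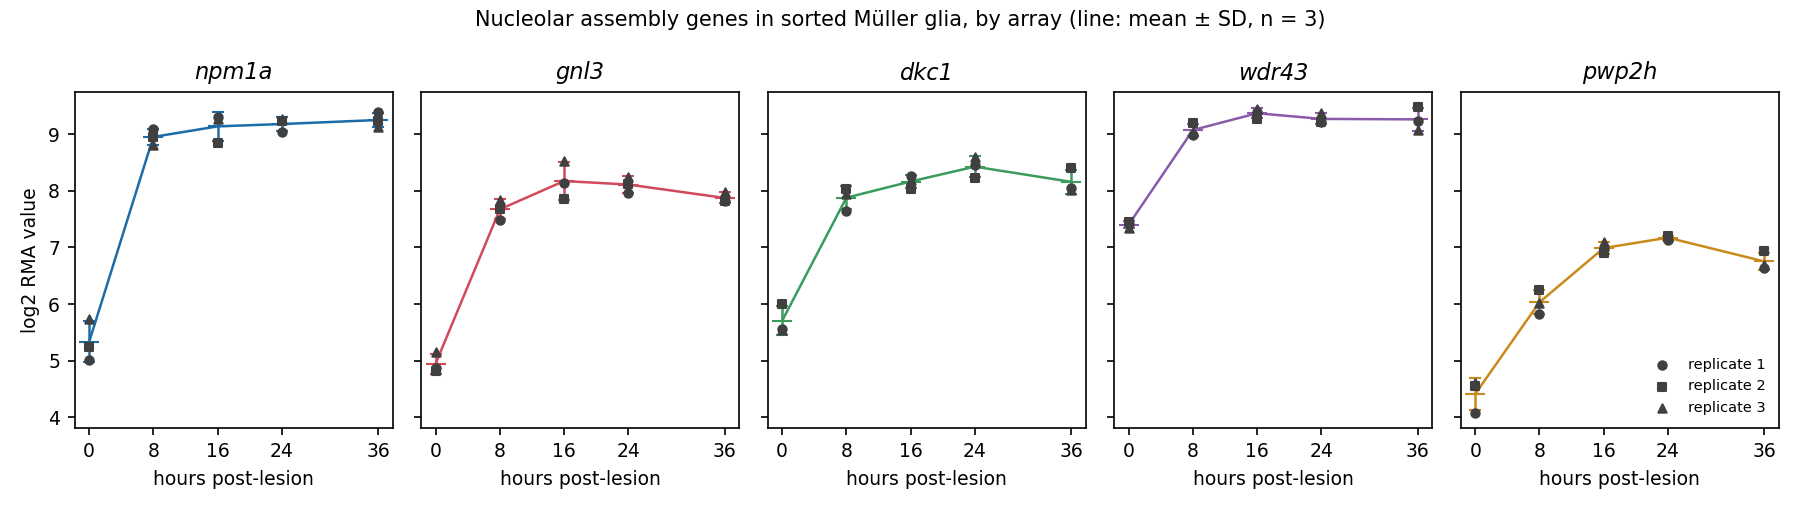
Levels (log2 RMA value, vertical axis) of npm1a, gnl3, dkc1, wdr43 and pwp2h against time (hours post-lesion, horizontal axis), with 1 point per array, marked by replicate number, and a line for the mean ± SD of the 3 arrays of a time. For each gene the 3 arrays at 0 hpl lie below all lesioned arrays, and pwp2h alone makes a further clear step between 8 and 16 hpl.

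The nucleolar chaperone npm1a, named npm1 in the authors' deposited table, showed the largest change of the 5. Its level was 5.02, 5.24 and 5.73 on the arrays at 0 hpl and 9.09, 8.96 and 8.80 at 8 hpl. It was 9.31, 8.85 and 9.26 at 16 hpl, 9.04, 9.23 and 9.27 at 24 hpl and 9.39, 9.23 and 9.13 at 36 hpl. The controls were thus the 3 low arrays and the 12 lesioned arrays formed 1 band in which neighbouring times overlapped. The mean went from 5.33 ± 0.36 (SD, n = 3) to 8.95 ± 0.14 at 8 hpl and 9.25 ± 0.13 at 36 hpl. The control mean lay at percentile 61.5 of the probe sets. With no detection calls, a signal above background is not shown there, so the folds of npm1a are those of measured values. The change was 3.62 ± 0.18 (SE), or 12.3-fold, at 8 hpl (limma, adjusted p = 3.75e-09) and 3.92 ± 0.18, or 15.1-fold, at 36 hpl (adjusted p = 6.25e-10). Ordered by size of rise, npm1a stood at position 8 of the 15502 probe sets at 8 hpl and at positions 14, 17 and 22 at the later times.

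The GTP-binding protein gene gnl3 had the next largest change. Its level was 4.87, 4.83 and 5.15 at 0 hpl, 7.49, 7.68 and 7.85 at 8 hpl and 8.13, 7.86 and 8.53 at 16 hpl. It was 7.96, 8.13 and 8.24 at 24 hpl and 7.82, 7.81 and 7.99 at 36 hpl. All 3 arrays at 16 hpl were above the 3 at 8 hpl, while the arrays of 36 hpl overlapped both. The change was 2.72 ± 0.17 (SE), or 6.60-fold, at 8 hpl (limma, adjusted p = 4.69e-08) and 3.22 ± 0.17, or 9.33-fold, at 16 hpl (adjusted p = 2.99e-09). The change at 36 hpl was 2.92 ± 0.17 (adjusted p = 4.98e-09). The control mean, 4.95, lay at percentile 55.6 of the probe sets. A signal above background is not shown there, so the folds of gnl3 are those of measured values.

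The pseudouridine synthase gene dkc1 had levels of 5.57, 6.00 and 5.55 at 0 hpl, 7.65, 8.03 and 7.95 at 8 hpl and 8.27, 8.04 and 8.19 at 16 hpl. Its levels were 8.46, 8.22 and 8.59 at 24 hpl and 8.05, 8.41 and 8.02 at 36 hpl. The highest array of the controls was replicate 2, which still lay below the lowest lesioned array, replicate 1 at 8 hpl. The change was 2.17 ± 0.17 (SE), or 4.51-fold, at 8 hpl (limma, adjusted p = 4.26e-07). It was largest at 24 hpl, at 2.72 ± 0.17 or 6.59-fold (adjusted p = 1.51e-08). The control mean of dkc1 lay at percentile 66.7 of the probe sets, where a signal above background is not shown either.

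Of the small-subunit processome genes, wdr43 was named wdr43l in the authors' deposited table. Its level was 7.42, 7.45 and 7.34 at 0 hpl, 8.99, 9.20 and 9.03 at 8 hpl and 9.40, 9.27 and 9.44 at 16 hpl. It was 9.22, 9.21 and 9.38 at 24 hpl and 9.24, 9.47 and 9.07 at 36 hpl. The controls agreed closely (SD 0.06, n = 3), and replicate 3 at 36 hpl was the low array among the later times. The change was 1.67 ± 0.13 (SE), or 3.18-fold, at 8 hpl (limma, adjusted p = 4.27e-07). At 16 hpl it was 1.97 ± 0.13, or 3.91-fold (adjusted p = 2.94e-08).

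The UtpB gene pwp2h had levels of 4.08, 4.55 and 4.60 at 0 hpl, 5.83, 6.25 and 6.02 at 8 hpl and 6.97, 6.90 and 7.10 at 16 hpl. Its levels were 7.13, 7.20 and 7.18 at 24 hpl and 6.64, 6.93 and 6.69 at 36 hpl. The arrays formed 3 separate bands, with the controls lowest, 8 hpl in between and the later times highest. The change was 1.62 ± 0.16 (SE) at 8 hpl (limma, adjusted p = 3.07e-06), 2.58 ± 0.16 at 16 hpl (adjusted p = 1.56e-08) and 2.76 ± 0.16 at 24 hpl (adjusted p = 5.33e-09). Its mean at 0 hpl, 4.41 ± 0.29 (SD, n = 3), lay at percentile 45.9 of the probe sets, so a signal above background is not shown there. Its changes against the controls are differences of measured values from that low level, given without folds and not as exact sizes. The authors' deposited table annotates this probe set with superoxide metabolism, which is not the role known for Pwp2 in yeast, and the assignment of the probe set was not checked against sequence.

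After 8 hpl the genes differed in whether a further step was called. From 8 to 16 hpl pwp2h rose further by 0.96 (95% interval 0.63 to 1.29), or 1.94-fold (limma, adjusted p = 0.00150), where 5.48% of the probe sets tested and 20.1% of those in the authors' table were called higher. The other 4 genes did not pass: npm1a moved by 0.19 (-0.19 to 0.56, adjusted p = 0.659), dkc1 by 0.29 (-0.07 to 0.64, adjusted p = 0.391), wdr43 by 0.30 (0.02 to 0.57, adjusted p = 0.204) and gnl3 by 0.50 (0.14 to 0.86, adjusted p = 0.0814). For gnl3, dkc1, wdr43 and pwp2h the 3 arrays at 16 hpl lay wholly above those at 8 hpl, as they did for 13.6% of the probe sets tested. The gap between the arrays was 0.65 for pwp2h, 0.072 for wdr43 and 0.0099 for gnl3. For dkc1 it was 2.79e-04, in effect a tie. Leaving out replicate 2 at 16 hpl put the gnl3 step past the threshold (adjusted p = 0.0381), as did the fit with the replicate number as a block (adjusted p = 0.0369).

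None of the 5 genes passed limma's test between 16 and 24 hpl or between 24 and 36 hpl. From 16 to 24 hpl the changes lay between -0.10 for wdr43 and 0.26 for dkc1, and none reached an unadjusted p under 0.05. That interval was quiet on the whole array, with 0.29% of the probe sets tested called higher. From 24 to 36 hpl the largest difference was that of pwp2h, -0.42 (95% interval -0.75 to -0.09, adjusted p = 0.138), which alone reached an unadjusted p under 0.05. Over that step 2.03% of the probe sets tested were called lower.

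Across longer intervals pwp2h was higher at 24 than at 8 hpl by 1.14 ± 0.16 (SE; limma, adjusted p = 1.63e-04) and at 36 than at 8 hpl by 0.72 ± 0.16 (adjusted p = 0.00334). The background of rises in these comparisons was 7.73% and 12% of the probe sets tested. The gene dkc1 was higher at 24 than at 8 hpl by 0.55 ± 0.17 (adjusted p = 0.0371). This dkc1 call was lost without replicate 1 or 3 at 8 hpl (adjusted p = 0.145 and 0.0559) and without replicate 1 or 3 at 24 hpl (adjusted p = 0.108 and 0.134). The highest mean after the lesion was at 16 hpl for gnl3 and wdr43, at 24 hpl for dkc1 and pwp2h and at 36 hpl for npm1a. Between 16, 24 and 36 hpl no pair of times passed the test for any of the 5. The arrays of these times overlapped for npm1a, gnl3, dkc1 and wdr43. For pwp2h those at 24 hpl lay wholly above those at 16 and at 36 hpl, where 10.4% of the probe sets tested lay wholly higher at 24 than at 16 hpl and 14.5% wholly lower at 36 than at 24 hpl.

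**Figure D2:**
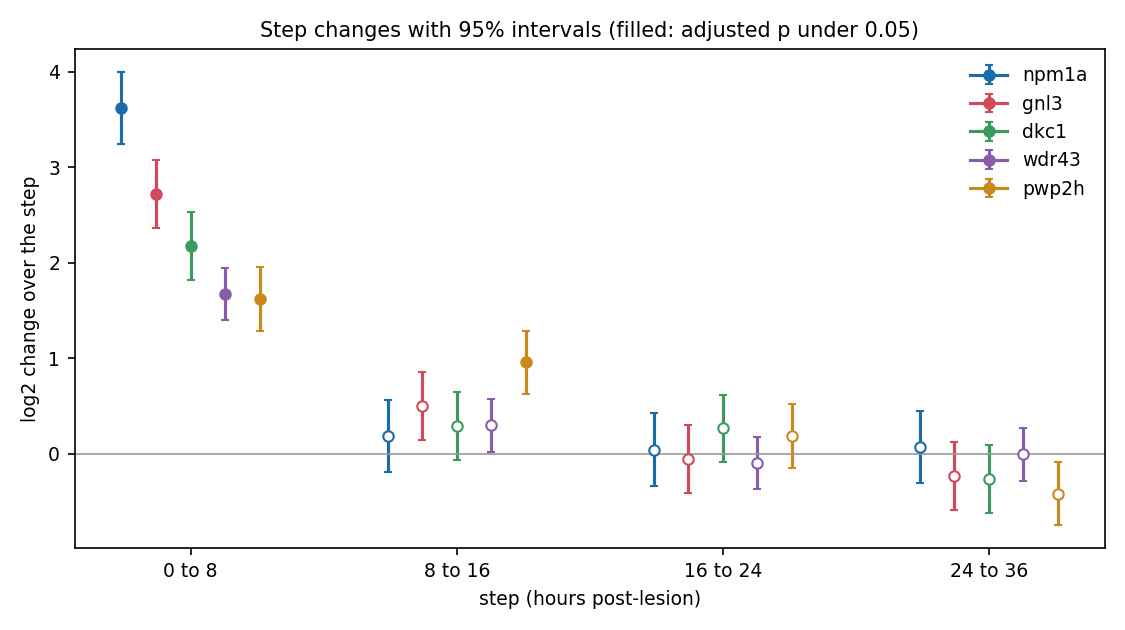
Log2 change over each step between neighbouring times (vertical axis) for the 5 genes, with 95% intervals of the limma fit and filled points where the adjusted p was under 0.05. The 5 steps from 0 to 8 hpl lie between 1.62 and 3.62, and of the 15 later steps that of pwp2h from 8 to 16 hpl, at 0.96, is the filled one.

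The sizes of the rises differed between the 5 genes. Differences were taken between genes within each array, as differences of change, because levels of different probe sets cannot be set against each other. At 8 hpl the within-array differences of 9 of the 10 gene pairs did not overlap those of the controls, at 16 hpl 9, and at 24 and 36 hpl 8. Over all pairs of probe sets in the authors' table this held for 59.9%, 69.5%, 72% and 69.5% of pairs at the 4 times, so unequal changes were common on these arrays. For 3 against 3 arrays the smallest two-sided exact permutation p is 0.1, which these pairs reached (adjusted p = 0.118 over 40 tests), so this test gives sizes and overlap and cannot reach 0.05. At 8 hpl the change of npm1a exceeded that of gnl3 by 0.90, that of gnl3 exceeded that of dkc1 by 0.55, and that of dkc1 exceeded that of wdr43 by 0.50. The pair that overlapped at 8 hpl was wdr43 and pwp2h, whose changes differed by 0.05 (exact permutation p = 0.8).

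The measured place of pwp2h in that order moved, with the limit that its control level is not shown to be above background. At 16, 24 and 36 hpl its change exceeded that of wdr43 by 0.61, 0.89 and 0.48, with no overlap of arrays, while it overlapped dkc1 at each of these times (differences of 0.12, 0.04 and -0.11 in the same direction). The step from 8 to 16 hpl does not use the controls. In the step from 8 to 16 hpl alone, a comparison added after the data were seen, pwp2h rose more than npm1a by 0.77, than dkc1 by 0.67, than wdr43 by 0.66 and than gnl3 by 0.46. In these 4 pairs the arrays of the 2 times did not overlap (exact permutation p = 0.1, adjusted p = 0.25 over 10 tests), and the other 6 pairs overlapped. In that step 44.7% of all pairs in the authors' table did not overlap, so 4 of 10 pairs is no more than is common on these arrays.

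Levels of the 5 genes went together over the 15 arrays, with Pearson r between 0.932 for npm1a and pwp2h and 0.986 for dkc1 and wdr43. These values mostly carry the shared step at the lesion. With the mean of each time removed, r ranged from -0.07 for npm1a and dkc1 to 0.76 for dkc1 and wdr43, a description over 15 arrays with no test.

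The 5 genes belong to a larger group that moved in the same direction. Of 79 other ribosome biogenesis genes found among the named probe sets, 73 rose at 8 hpl, 78 at 16 hpl and 79 at 24 and at 36 hpl, and none fell at these times. Their median change was 1.16 at 8 hpl, 1.70 at 16 hpl, 1.71 at 24 hpl and 1.49 at 36 hpl. Over all probe sets tested the median change was -0.10, -0.14, -0.11 and -0.14 at these times, and over the 2511 probe sets with 1 gene symbol, which changed at least 2-fold at some time, it was 0.34, 0.82, 0.80 and 1.01. Of these 2511, 40.6%, 54.3%, 54.6% and 59.5% were called higher at 8, 16, 24 and 36 hpl. Because naming required a 2-fold change at some time, the counts of the 79 are partly set by it. The 5 genes, chosen with earlier results of these data known, had a median of 2.17 at 8 hpl. The largest rise at 8 hpl among the 79 was that of the 40S factor fcf1, at 2.48 ± 0.22 (SE; limma, adjusted p = 1.24e-06).

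The group was then read by role. Of nucleolar chaperones and scaffolds 4 of 10 listed genes were found and all 4 rose at 8 hpl, with a median of 1.13. The npm1a relative npm3 rose by 0.84 ± 0.14 (SE; limma, adjusted p = 5.19e-04), less than npm1a, and stepped up by a further 0.92 ± 0.14 from 8 to 16 hpl (adjusted p = 0.00109). The large-subunit assembly factors nop53 and noc2l rose by 1.54 ± 0.20 and 1.42 ± 0.22 at 8 hpl, the latter from a control level of 3.73, below the array medians.

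RNA polymerase I and the subunits it shares with other polymerases were found through 6 genes, from 22 listed names that include former names. At 8 hpl 5 rose, with a median of 1.05, and the shared subunit gene polr2f had a change of 0.46 that did not pass (limma, adjusted p = 0.102). The polymerase I subunit genes polr1e and polr1h rose by 0.92 ± 0.15 (SE) and 1.18 ± 0.20 at 8 hpl, and both rose again from 8 to 16 hpl (0.61 ± 0.15, adjusted p = 0.0166, and 0.83 ± 0.20, adjusted p = 0.0194). The shared subunit gene polr2eb rose by 1.97 ± 0.18 at 8 hpl (adjusted p = 1.94e-06).

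Among the modification enzymes, dkc1 had 1 partner, found from 8 listed box H/ACA names that include former names. This was nhp2, which encodes a core protein of the same particle and rose by 1.60 ± 0.20 (SE) at 8 hpl (limma, adjusted p = 3.08e-05), with a step of 0.27 to 16 hpl that did not pass (adjusted p = 0.523). The box C/D particles, which carry the 2'-O-methylation enzyme, were found through 3 genes from 13 listed names, and all 3 rose. The methyltransferase gene fbl (fibrillarin) rose by 1.89 ± 0.19 (adjusted p = 4.10e-06) and the core protein gene snu13b by 2.03 ± 0.21 (adjusted p = 7.31e-06). The assembly helicase gene ruvbl1 rose by 0.98 ± 0.22 at 8 hpl (adjusted p = 0.00528) and 2.60 ± 0.22 at 36 hpl (adjusted p = 2.69e-07).

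The complexes of wdr43 and pwp2h were each partly present. Of UtpA 3 other subunit genes were found, from 6 listed names that include former names. All 3 rose at 8 hpl: utp4 by 1.58 ± 0.15 (SE, limma, adjusted p = 3.73e-06), utp15 by 0.92 ± 0.19 (adjusted p = 0.00287) and nol11 by 0.54 ± 0.17 (adjusted p = 0.0309). The changes at 8 hpl of wdr43 and utp4 were thus near each other, at 1.67 and 1.58, and nol11 was lower and stepped up by 0.93 ± 0.17 to 16 hpl (adjusted p = 0.00358). Of UtpB 2 of 5 other subunit genes were found and rose at 8 hpl, wdr36 by 1.05 ± 0.17 (adjusted p = 3.16e-04) and wdr3 by 0.70 ± 0.20 (adjusted p = 0.0163). Their steps from 8 to 16 hpl, 0.42 and 0.45, did not pass (adjusted p = 0.152 and 0.198), while that of their partner pwp2h did. The difference between these steps was not tested, and the control means of utp15 and wdr36, 4.07 and 4.43, were low, as was that of pwp2h.

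Other 40S assembly genes were found for 22 of 53 names, of which 19 rose at 8 hpl with a median of 1.02. The 3 that did not pass were imp3, wdr46 and nat10, with changes of 0.35, 0.10 and 0.27. The 18S methyltransferase gene bud23 rose by 1.48 ± 0.15 (SE; limma, adjusted p = 5.59e-06) and tsr2, whose yeast product escorts a small-subunit protein, by 1.25 ± 0.15 (adjusted p = 2.18e-05). From 87 names 38 genes of 60S assembly were found and 36 rose, with a median of 1.19, and surf6 and lyar did not pass (0.31 and 0.20). The helicase gene ddx18 rose by 2.02 ± 0.17 (adjusted p = 9.98e-07), bop1, a subunit of the PeBoW complex, by 1.31 ± 0.15 (adjusted p = 1.94e-05) and pa2g4a by 0.997 ± 0.144 (adjusted p = 1.33e-04).

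Of the ribosomal protein genes a smaller share than of the biogenesis genes was called higher at 8 hpl. At 8 hpl 28 of 76 cytosolic ribosomal protein genes rose and 1 fell, with a median change of 0.52. Above, 73 of 79 rose, as did 5 of 5 that had been chosen with earlier results of these data known. The ribosomal protein share of rises, 36.8%, was near the 37.3% of the authors' table and below the 40.6% of probe sets with 1 symbol. At 8 hpl it thus does not stand out from the named probe sets. At 16 hpl 74 of the 76 had risen, with a median of 1.42, and at 24 and 36 hpl all 76, with medians of 1.69 and 2.08. These 76 were found from 95 listed names, among probe sets that changed at least 2-fold at some time. Of them 75 were highest at 36 hpl, so the late counts are largely set by how the genes came to be named. Of the probe sets with 1 symbol, 54.3%, 54.6% and 59.5% were called higher at 16, 24 and 36 hpl. The count of 28 was sensitive to single arrays: it was 14 without replicate 3 at 8 hpl, 18 without replicate 1 at 0 hpl and 43 without replicate 1 at 8 hpl. It was 60 with the arrays scaled on the hybridisation controls and 17 after repeated quantile normalisation, and under either scaling the 5 genes stayed called at 8 hpl.

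Single ribosomal protein genes differed in their timing. The 3 with the strongest F test were rps6, rpsa and rps3. At 8 hpl rps6 rose by 1.05 ± 0.15 (SE; limma, adjusted p = 1.24e-04), while rpsa (0.24 ± 0.14, adjusted p = 0.231) and rps3 (0.05 ± 0.12, adjusted p = 0.778) did not pass. At 36 hpl the 3 had risen by 3.09 ± 0.15 (adjusted p = 1.03e-09), 2.37 ± 0.14 (adjusted p = 9.06e-09) and 1.94 ± 0.12 (adjusted p = 1.77e-08). The lowest change at 8 hpl was that of rps27.1, which fell by 0.45 (SE 0.16, adjusted p = 0.0475), a call that was lost with the arrays scaled on the hybridisation controls. The highest was that of rpl7l1, at 2.42 ± 0.20 (adjusted p = 7.53e-07), whose step to 16 hpl was 0.06. The product of rpl7l1 resembles ribosomal protein L7 and in humans is an assembly factor of the large subunit.

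**Figure D3:**
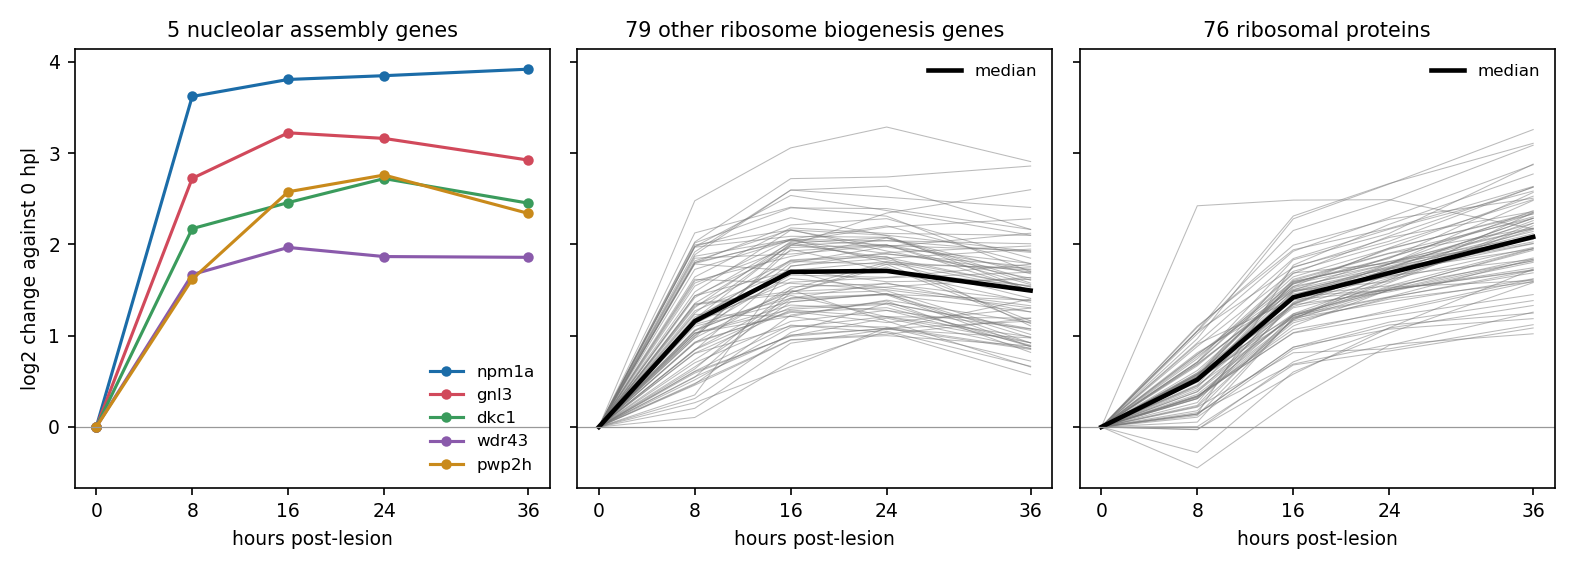
Log2 change against 0 hpl (vertical axis) by time (hours post-lesion) for the 5 nucleolar assembly genes, the 79 other ribosome biogenesis genes and the 76 ribosomal protein genes, with 1 line per gene and a heavy line for the median in the last 2 panels. The median of the biogenesis genes is 1.16 at 8 hpl, 1.70 at 16 hpl and 1.49 at 36 hpl, while that of the ribosomal proteins is 0.52 at 8 hpl and still climbs to 2.08 at 36 hpl.

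The part of the rise present at 8 hpl was expressed as the log2 change at 8 hpl in percent of that at 16 hpl. It was 95.1% for npm1a, 88.4% for dkc1, 84.9% for wdr43, 84.5% for gnl3 and 62.8% for pwp2h. Of the 79 biogenesis genes 78 had been called higher at 16 hpl, and their median was 72.5% with quartiles at 59.3% and 81.2%. The 74 ribosomal protein genes called higher at 16 hpl had a median of 35.4% with quartiles at 28.1% and 44.1%. Over the 1364 probe sets with 1 symbol that were called higher at 16 hpl the median was 60.5%, with quartiles at 41.0% and 78.0%. Thus npm1a, dkc1, wdr43 and gnl3 lay above the upper quartile of all such probe sets. They had been chosen with earlier results of these data known, so this place describes them and tests nothing. The percentage of pwp2h, 62.8%, lay nearer the median of all such probe sets, but it rests on a control level not shown to be above background. The control levels of npm1a, gnl3 and dkc1 are not shown to be above background either. Control levels of the compared genes were not filtered. Among the biogenesis genes rrs1 and noc2l had control means of 3.10 and 3.73, below the 4.41 of pwp2h. The upper quartile of the ribosomal proteins lay near the lower quartile of all such probe sets. The percentage is a ratio of changes that share the controls and carries no test.

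**Figure D4:**
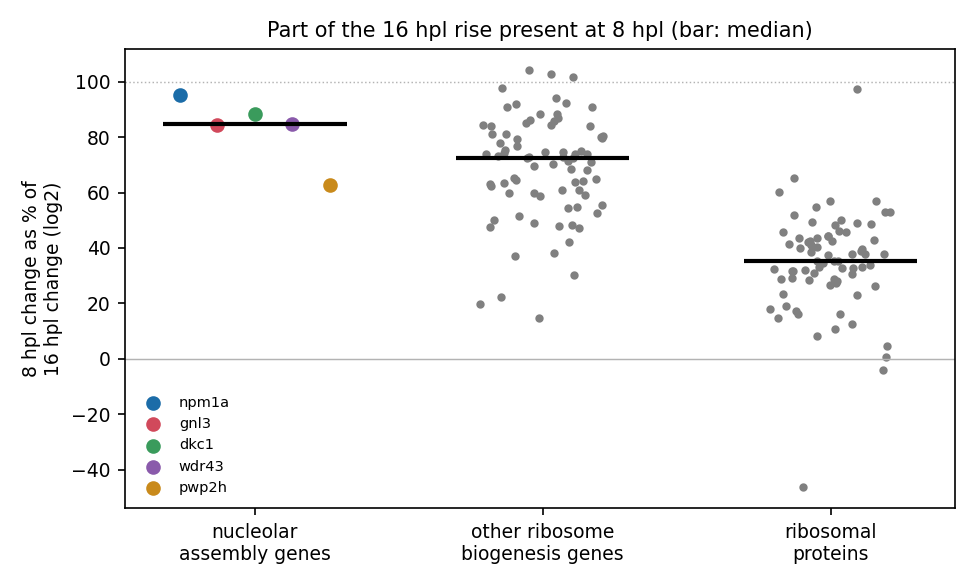
Log2 change at 8 hpl as a percentage of that at 16 hpl (vertical axis) for the 5 nucleolar assembly genes and for the biogenesis and ribosomal protein genes called higher at 16 hpl, with 1 point per gene and a bar at the median. The medians are 84.9%, 72.5% and 35.4%, and pwp2h, whose control level is not shown to be above background, is at 62.8%.

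Timing was also compared within arrays, for the 5 genes against rps6, rpsa and rps3, a comparison added after the data were seen. At 8 hpl the change of the nucleolar gene exceeded that of the ribosomal protein gene in 15 of 15 pairs, by 0.57 to 3.57, and 14 pairs did not overlap between 0 and 8 hpl. From 8 to 16 hpl the step of the nucleolar gene was the smaller one in 15 of 15 pairs, with differences of -0.96 to -0.15, and 12 pairs did not overlap. The 3 pairs that overlapped in that step were those of pwp2h. The shares of non-overlapping pairs over the authors' table were 59.9% and 44.7% in these comparisons. The lowest exact permutation p was 0.1, the smallest for 3 against 3 arrays (adjusted p = 0.115 over 30 tests). The 5 genes had been chosen with earlier results of these data known, and the 3 ribosomal protein genes had been picked by their F test. The 15 pairs also reuse the same genes and arrays. They thus describe these genes and not the 76, and do not test an order in time.

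After 8 hpl more of the ribosomal protein genes than of the biogenesis genes went on rising. From 8 to 16 hpl 63 of 76 ribosomal protein genes rose, with a median step of 0.85, and 23 of 79 biogenesis genes, with a median of 0.48. These shares were 82.9% and 29.1%, against 5.48% of the probe sets tested, 20.1% of the authors' table and 22.8% of the probe sets with 1 symbol, whose median step was 0.27. The biogenesis share thus lay near that of the named probe sets. Without replicate 3 at 16 hpl these counts were 41 and 10, and the biogenesis count was 11 without replicate 1 at 16 hpl and 13 without replicate 3 at 8 hpl. From 16 to 36 hpl, counts added after the data were seen, 40 ribosomal protein genes rose and none fell, with a median of 0.65, while no biogenesis gene rose and 4 fell, with a median of -0.23. The 5 genes lay with the latter, at 0.11 for npm1a, -0.01 for dkc1, -0.11 for wdr43, -0.24 for pwp2h and -0.30 for gnl3, and none passed the test. Over this interval 5.12% of the probe sets tested were called higher and 3.66% lower. Of the 2511 probe sets with 1 symbol 16.0% were called higher and 256 were called lower. The 4 falls among the biogenesis genes thus do not stand out from the named probe sets. The 4 biogenesis genes that fell, named after their values were seen, were the polymerase subunit gene polr1c and the 60S assembly genes nifk, ddx56 and lsg1.

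These late counts rested on few arrays. The ribosomal protein count from 16 to 36 hpl was 15 without replicate 1 at 16 hpl, 20 without replicate 2 at 16 hpl, 19 without replicate 2 at 36 hpl and 25 without replicate 3 at 36 hpl. The biogenesis count of 4 was 1 without replicate 1 or replicate 3 at 16 hpl and 2 without replicate 1 at 36 hpl. By time of the highest mean, 75 of 76 ribosomal protein genes were highest at 36 hpl and rpl7l1 at 24 hpl. Of the 79 biogenesis genes 28 were highest at 16 hpl and 37 at 24 hpl, 13 had their peak at 36 hpl and 1, ddx51, at 8 hpl. Peak times were not counted over the other named probe sets. The median change of the probe sets with 1 symbol was itself larger at 36 hpl (1.01) than at 24 hpl (0.80). These peak counts thus describe the lists and are not set against a background.

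The probe sets with courses most like those of the 5 genes were sought over 1980 named probe sets by Pearson r across the 15 arrays, which share the 5 times. For npm1a these were ctps1a (0.993), a synthase of CTP, the homeobox gene tgif1 (0.988), cebpz (0.977), the proteasome subunit gene psmd11b (0.975) and mettl2a (0.971). For gnl3 they were ddx18 (0.986), ctps1a (0.985), the tRNA methyltransferase gene mettl2a (0.985), fcf1 (0.984) and cebpz (0.982). The genes ddx18, fcf1 and cebpz are among the 79 above. The median r of all 1980 probe sets with a given gene of the 5 was between 0.65 and 0.70, so a high r is common in these data.

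For dkc1 the most similar courses were those of znf593 (0.984), fcf1 (0.981), the cytochrome c gene cycsb (0.980), tspan36 (0.980) and ctps1a (0.980). For wdr43 they were those of the prefoldin subunit gene pfdn2 (0.989), ctps1a (0.988), ddx18 (0.984), tgif1 (0.982) and tspan36 (0.982). The list of pwp2h shared no gene with these. It held the nuclear import receptor gene ipo7 (0.989), the chaperonin subunit gene cct6a (0.983), the elongation factor gene eef1b2 (0.983), zc3h15 (0.981) and the mitochondrial import gene timm13 (0.981). The genes znf593 and zc3h15 were, like fcf1 and ddx18, on the list of other ribosome biogenesis genes above. The place of zc3h15 on that list was not checked further.

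Changes of these neighbours between 8 and 16 hpl varied within as well as between the lists. The gene ctps1a rose by 2.17 ± 0.13 (SE) at 8 hpl (limma, adjusted p = 2.83e-08) and was at 2.27 ± 0.13 at 16 hpl (adjusted p = 7.68e-09). For dkc1 and wdr43, tspan36 went from 2.35 ± 0.22 (adjusted p = 2.06e-06) to 3.11 ± 0.22 (adjusted p = 4.95e-08). Of the pwp2h list ipo7 rose by 0.98 ± 0.14 at 8 hpl (adjusted p = 1.13e-04) and was at 1.75 ± 0.14 at 16 hpl (adjusted p = 1.74e-07), and eef1b2 went from 1.58 ± 0.16 (adjusted p = 4.97e-06) to 2.86 ± 0.16 (adjusted p = 7.12e-09).

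Myc proteins are known activators of ribosome biogenesis genes. From 16 listed names of the Myc network 5 genes were found, of which 3 rose and 2 fell at each time. The Myc gene mych rose by 3.46 ± 0.26 (SE) at 8 hpl (limma, adjusted p = 3.77e-07) from a control mean of 3.97, below the array medians, and moved by -0.43 from 8 to 16 hpl, which did not pass (adjusted p = 0.414). The L-Myc gene mycla rose by 1.73 ± 0.18 at 8 hpl (adjusted p = 7.37e-06) and fell by 0.99 from 8 to 16 hpl (SE 0.18, adjusted p = 0.00334). The gene mxi1, which encodes a Max partner that opposes Myc, fell by 1.49 at 8 hpl (SE 0.18, adjusted p = 3.10e-05). The other gene that fell was not among the 3 with the smallest F p and is not named here. The highest mean was at 8 hpl for mych and mycla and at 16 hpl for mycb, the other gene that rose (2.02 at 8 hpl, adjusted p = 0.00103, and 3.01 at 16 hpl, adjusted p = 1.27e-05), named after its values were seen.

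The authors' deposited table gives p-values for the same probe sets by time, under headings that do not name the test. A further heading, for the smallest p over the times, reads FDRCI. The adjustment and the hypothesis tested are not spelled out there. In the authors' deposited table the p at 8 hpl was 0.0171 for npm1a, 0.0155 for gnl3, 0.0256 for wdr43, 0.0614 for dkc1 and 0.268 for pwp2h. At 16, 24 and 36 hpl the p-values of the 5 genes in the authors' deposited table lay between 0.00961 and 0.0440. The authors' p-values of dkc1 and pwp2h at 8 hpl were thus above 0.05, where the limma fit over 15 arrays called both. Whether the authors' p-values and those of limma test the same hypothesis is not known, so they are not like for like.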

How the data were processed

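Sorted Müller glia were measured on 15 Affymetrix arrays, grouped by labelled time. The deposited values are on the log2 scale and were made by RMA (background correction, normalisation between arrays and probe summary), per the submitters' processing notes; the implementation is not given in the sources used here. Normalisation between arrays sets changes relative to the bulk of the array. A deposited table of 3164 probe sets holds the authors' signed fold changes and the authors' p-values. Its headings do not state the test, apart from the term FDRCI for the smallest p over the times. For the 5 genes those folds equal the differences of group means to 3.62e-10 on the log2 scale.

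Of 15617 probe sets 115 controls were left out and 15502 tested with no filter on dim ones, since RMA gives no detection calls. The 15 arrays entered a single linear model of time (lmFit and eBayes of limma 3.58.1, under R 4.3.3), with Benjamini-Hochberg adjustment within a contrast and calls at 0.05. The model was also checked on simulated data, which took the 0 hpl means and the residual spread of these arrays. Intervals are 95% intervals of that fit. The number of arrays limits the precision. Pairs of genes were compared by two-sided exact permutation of within-array differences.

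Names came from the deposited table, in which 2511 probe sets have 1 symbol, 108 several and 545 none; 1007 symbols were current in RefSeq, 983 were updated through a synonym and 521 were kept as given. A gene with several probe sets is represented by the brightest on average. Named genes were all 5 members, the 3 with the smallest F p of each list, the ribosomal proteins with the largest and smallest change at 8 hpl, and the 5 most similar probe sets per gene; names were added for small counts. The genes, the question of their order in time and the lists were chosen with earlier results of these data known. Lists were described by counts and medians, with no set test. Promoter motifs were not analysed here.

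Replicate numbers recur at each time. Deviations of 30 same-numbered pairs from their group means correlated at -0.34 to 0.40, as did those of other pairs, and the 3 pairs exceeded 0.1 for 16 and 36 hpl alone, where a replicate block changed no call of the 5 genes. Alternatives were other scalings (18 hybridisation-control probe sets, median centring, quantile normalisation again), array weights, trended and robust eBayes, the dimmest 25% left out, the compared groups alone, a replicate block, an adjusted p under 0.01, and each array left out.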

Additional observations from a re-analysis of the deposited data

How the results depend on the processing

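The 20 changes of the 5 genes against 0 hpl kept their direction and their call in each of 24 alternatives, 480 fits, with changes of 1.45 to 4.43 and adjusted p up to 0.00136 (limma). The hybridisation controls stood lower than at 0 hpl, with differences of -0.29, -0.38, -0.31 and -0.51 at the 4 times. Scaling on them moved the median change of all probe sets to 0.19, 0.25, 0.20 and 0.38. The further rise of pwp2h from 8 to 16 hpl kept its call in 24 of 24, with adjusted p of 6.87e-04 to 0.0150. The number of the 5 genes called in that step was 2 with array weights, hybridisation-control scaling and the replicate block, gnl3 being added, and 1 to 2 with 1 array left out. The dkc1 call from 8 to 24 hpl was lost in 9 of 24, and gnl3 gained one there under the replicate block (adjusted p = 0.0463). Small uncalled differences changed sign. From 16 to 24 hpl npm1a was at -0.031 with hybridisation-control scaling, -0.018 with median centring and -0.10 to 0.13 with 1 array left out, and gnl3 at 0.027 after repeated quantile normalisation and -0.22 to 0.12. From 24 to 36 hpl wdr43 was at 0.19 with hybridisation-control scaling, 0.029 with median centring and -0.12 to 0.088 with 1 array left out. From 16 to 36 hpl hybridisation-control scaling put dkc1 at 0.12 and wdr43 at 0.021, quantile normalisation put dkc1 at 0.00609, and leaving out 1 array gave -0.13 to 0.065 for dkc1 and -0.033 to 0.20 for npm1a.

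Ribosomal proteins called higher at 8 hpl (28) were 60 with hybridisation-control scaling, 17 after quantile normalisation, 15 with only the groups compared, 14 at an adjusted p under 0.01 and 14 to 43 with 1 array left out. The 1 called lower was 0 with hybridisation-control scaling, median centring, the replicate block, only the groups compared and the stricter p, and 0 to 1 with 1 array left out. From 8 to 16 hpl their count (63) was 39 with only the groups compared and 41 to 71 with 1 array left out. From 16 to 24 hpl (0) it was 2 with array weights. From 24 to 36 hpl (5) it was 8 with array weights, 14 with hybridisation-control scaling, 3 after quantile normalisation and under the replicate block, 1 with only the groups compared, 0 at the stricter p and 0 to 7 with 1 array left out. From 16 to 36 hpl (40) it was 16 at the stricter p, 37 under the replicate block and 15 to 53 with 1 array left out. Biogenesis genes called higher from 8 to 16 hpl (23) were 12 with only the groups compared, 8 at the stricter p and 10 to 24 with 1 array left out. Those called lower from 24 to 36 hpl (1) were 3 with array weights, 2 with the dimmest 25% left out, 5 after quantile normalisation, 0 with trended and robust eBayes, hybridisation-control scaling, median centring, only the groups compared and the stricter p, and 0 to 3 with 1 array left out. From 16 to 36 hpl biogenesis genes called higher (0) were 1 with array weights and 0 to 1 with 1 array left out, and those called lower (4) were 1 with hybridisation-control scaling and at the stricter p and 1 to 6 with 1 array left out. Shares of all probe sets called in these alternatives are not given here, so the recounts are not set against a background. The causes were not tested, apart from fewer arrays or a stricter threshold where the alternative sets them.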
